A study of Homo sapiens with 6 samples.

Results

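The RNA exosome subunit genes EXOSC1 to EXOSC10 were taken by symbol from the count tables of PLC/PRF5 cells, a human hepatocellular carcinoma line, and all 10 were found, each as 1 Ensembl gene among the 60675 counted. All 10 passed the filter on low counts, which left 18075 genes. The libraries were 3 labelled control and 3 labelled MTR4 KD, grown in DMEM with fetal bovine serum. By the study's account the cells carried an inducible MTR4 shRNA and were compared before and after it was switched on with doxycycline, so knockdown and doxycycline cannot be told apart here. The labels give only control and MTR4 knockdown, and no library of doxycycline-treated cells with a scramble shRNA was analysed here. Nothing in the labels says that the replicates came from separate cultures, so p-values measure the spread between these libraries, which may be technical. Fewer cells expressing a gene and less of its RNA in each cell cannot be told apart in such bulk libraries.

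The RNA exosome degrades and trims RNA from the 3′ end. Its core is a barrel of 9 proteins through which RNA is threaded, with a ring of 6 RNase PH-like proteins (EXOSC4 to EXOSC9) under a cap of 3 RNA-binding proteins (EXOSC1, EXOSC2 and EXOSC3). In human cells the barrel itself has lost catalytic activity, and degradation is done by bound nucleases, among them EXOSC10, the RRP6-type exonuclease of the nucleus and nucleolus, and DIS3. MTR4, encoded by MTREX, is the nuclear helicase that unwinds RNA and feeds it into the barrel. The question put to the counts was whether the subunit genes were expressed at another level when MTR4 was depleted.

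Reads counted on genes numbered 60686786 to 72708682 per library. Of all entries, 34.7% to 37.5% were reads whose alignment was not unique in control replicates 1 and 3 and MTR4 KD replicate 3, against 14.8% to 18.2% in control replicate 2 and MTR4 KD replicates 1 and 2. The libraries are therefore described below as those with more and those with fewer non-unique reads, each class holding both conditions. Hepatocyte genes were expressed in all 6 libraries, SERPINA1 at 8498 CPM or more and ALB at 736.6 CPM or more (CPM, the count scaled to the library's total). The lowest of the listed hepatocyte markers were TTR, at 14.6 to 31.6 CPM, and AFP, at 37.6 to 44.2 CPM. Of the markers of other cells, VWF had at most 10 counts in a library, CD3E at most 31 and PTPRC at most 109, while COL1A1 reached 6.02 CPM and COL1A2 4.65 CPM.

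MTREX (ENSG00000039123, GRCh38 chromosome 5, 55307989 to 55425579) was at 72.2, 87.4 and 74.4 CPM in the control libraries and at 44.6, 48.8 and 44.1 CPM in the MTR4 KD libraries, here and below after scaling by TMM, which corrects each library for its composition. The groups did not overlap. By edgeR's quasi-likelihood test, adjusted over all tested genes after Benjamini and Hochberg, it fell by 0.77 ± 0.0897 on the log2 scale (SE, as for all log2 fold changes here; adjusted p = 0.00641), to 0.588 times the control level. The helicase mRNA was thus lowered and not absent.

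None of the 10 exosome subunit genes passed an adjusted p of 0.05 in edgeR's test with condition as the only term, a threshold passed by 3.6% of all tested genes. DESeq2's Wald test and limma-voom likewise called 0 of the 10, against 8.36% and 3.38% of all genes. At an unadjusted p under 0.05 edgeR gave 1 member, EXOSC2, where 18.8% of all genes reached that level. Mean expression was lower after MTR4 knockdown for 8 members and higher for EXOSC3 and EXOSC6. The median log2 fold change of the 10 was -0.11, beside 0.01 over all tested genes, of which 48.9% had a lower mean; without control replicate 2 the median of the 10 was -0.05. These differences were small: the members lay between -0.24 and 0.17 on the log2 scale, and the median size of the change was 0.14, beside 0.16 over all genes and 0.12 over the 4216 tested genes with a mean CPM in the range of the members.

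The intervals of the fold changes give, gene by gene, the range left by the spread between these libraries. The highest upper bound among the 10, in 95% intervals from the same fit, was a ratio of 1.30, that of EXOSC6, and the lowest lower bound was 0.658, that of EXOSC4. For EXOSC7 the upper bound was 1.19, for EXOSC3 it was 1.15, and for the other 7 it was 1.12 or less. These bounds hold for TMM scaling and all 6 libraries. With 1 library left out, the highest upper bound of the 10 ranged from 1.25, without control replicate 2, to 1.37, without control replicate 1. ACTB itself stood at 3021 ± 198.3 CPM in the controls and 2643 ± 75.5 CPM after knockdown (mean ± SD of 3 libraries; edgeR adjusted p = 0.192), and relative to ACTB the highest upper bound became 1.503 and 9 of the 10 members had a higher rather than a lower mean. That choice moved the median of all genes to 0.19, and the median of the members stayed 0.12 below it on the log2 scale.

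**Figure D1:**
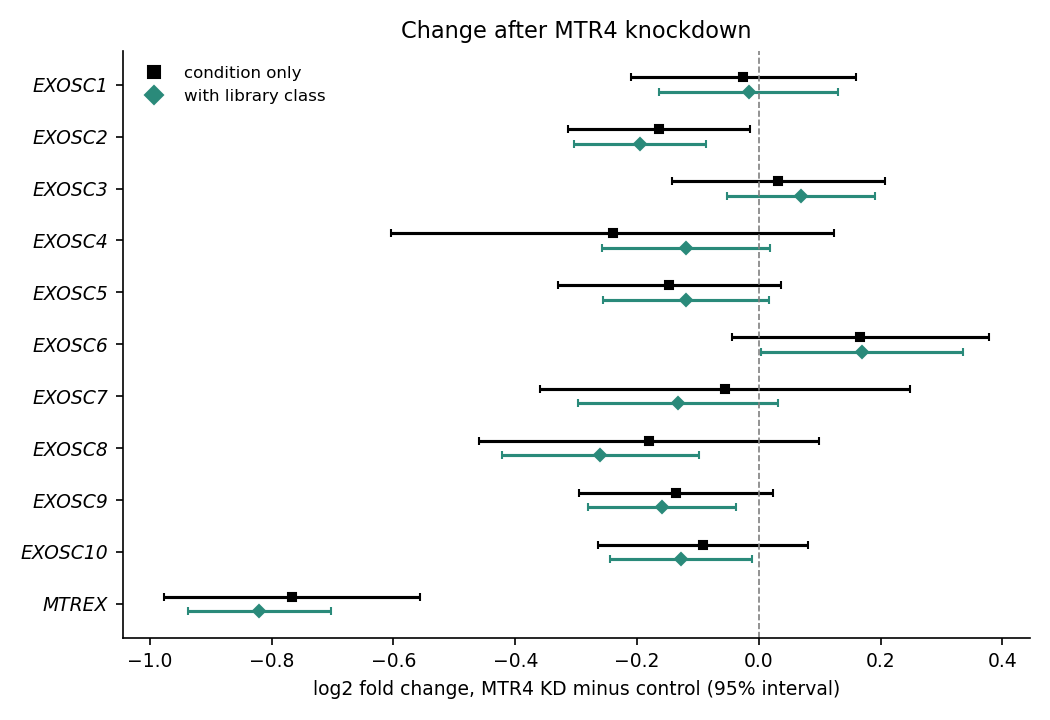
Log2 fold change of each exosome subunit gene and of MTREX (horizontal axis, MTR4 KD minus control) with its 95% interval, from edgeR with condition only (squares) and with library class as a covariate (diamonds). MTREX lies at -0.77 and -0.82, and the 10 subunit genes lie between -0.26 and 0.17 in both fits.

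The cap genes come first. EXOSC2 (ENSG00000130713, chromosome 9, 130693760 to 130704894) encodes RRP4, a cap protein with S1 and KH RNA-binding domains. It was at 39.7, 41.9 and 39.9 CPM in control replicates 1, 2 and 3 and at 36.5, 37.6 and 34.3 CPM in the MTR4 KD replicates. Every MTR4 KD library lay below every control library. Its difference came to -0.16 on the log2 scale (SE 0.0639; edgeR adjusted p = 0.228), a difference of -10.7%, with an interval of 0.804 to 0.990 times the control level. EXOSC2 was 1 of 3 members whose groups did not overlap with the MTR4 KD libraries lower, as 12.6% of all tested genes were; no member did so in the other direction, against 12.1% of all genes.

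EXOSC1 (ENSG00000171311, chromosome 10, 97435909 to 97446006), which encodes the cap protein CSL4, was at 20.2, 22.0 and 22.6 CPM in the control libraries and 20.2, 21.3 and 22.2 CPM in the MTR4 KD libraries. The values were interleaved. Its log2 fold change of -0.03 had an interval of 0.864 to 1.12 times the control level, the smallest estimate among the 10. EXOSC3 (ENSG00000107371, chromosome 9, 37779714 to 37785092), which encodes the cap protein RRP40, was at 33.6, 30.4 and 33.1 CPM in the controls and 33.8, 31.0 and 34.5 CPM after knockdown. Its groups overlapped, and in both of them replicate 2 was the lowest. The log2 fold change was 0.03, with an interval of 0.906 to 1.15 times the control level. EXOSC3 has 2 named processed pseudogenes, with at most 16 reads in any library for EXOSC3P1 and 0 for EXOSC3P2.

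Of the 6 ring genes, EXOSC5 and EXOSC9 were the other members without overlap. EXOSC5 (ENSG00000077348, chromosome 19, 41386374 to 41397359), which encodes RRP46, was at 32.3, 32.8 and 37.4 CPM in the control libraries and at 30.4, 30.2 and 32.0 CPM in the MTR4 KD libraries. The highest MTR4 KD library lay just under the lowest control library. The estimate was -0.15 on the log2 scale (SE 0.0783; edgeR adjusted p = 0.367), and -0.08 without control replicate 3, the highest library. EXOSC9 (ENSG00000123737, chromosome 4, 121801323 to 121817021), which encodes RRP45, known as the autoantigen PM/Scl-75, was at 30.4, 32.0 and 29.2 CPM and then at 28.7, 27.3 and 27.4 CPM. Here too the gap between the groups was narrow. On the log2 scale it differed by -0.14 (SE 0.0682; edgeR adjusted p = 0.337).

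EXOSC4 (ENSG00000178896, chromosome 8, 144064056 to 144080648), which encodes the ring protein RRP41, had the largest estimated difference and also the largest standard error. It was at 27.8, 21.8 and 26.3 CPM in the control replicates and at 19.6, 18.4 and 26.2 CPM in the MTR4 KD replicates. In both conditions the libraries with more non-unique reads were the higher ones. The estimate of -0.24 on the log2 scale (SE 0.155; edgeR adjusted p = 0.464) was -0.04 among the libraries with more non-unique reads and -0.20 among those with fewer. With 1 library left out it ranged from -0.14, without MTR4 KD replicate 2, to -0.41, without MTR4 KD replicate 3, and with library class as a covariate it was -0.12.

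EXOSC7 and EXOSC8 went the other way between library classes. EXOSC7 (ENSG00000075914, chromosome 3, 44976244 to 45012668), which encodes RRP42, was at 22.2, 29.7 and 22.0 CPM in the controls and at 23.0, 25.5 and 22.7 CPM after knockdown. Control replicate 2 stood above all other libraries, and without it the log2 fold change went from -0.06 to 0.10. EXOSC8 (ENSG00000120699, chromosome 13, 37000786 to 37009614), which encodes RRP43, had the fewest reads of the 10 and was at 11.9, 15.1 and 11.8 CPM in the controls and 11.7, 11.9 and 10.6 CPM after knockdown. Control replicate 2 was again the highest library, and the groups overlapped. The fitted difference was -0.18 on the log2 scale (SE 0.119; edgeR adjusted p = 0.473), and -0.06 without control replicate 2.

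EXOSC6 (ENSG00000223496, chromosome 16, 70246778 to 70251940), which encodes the ring protein MTR3 and is annotated as a single exon, was the only member with a mean more than 10% higher. It was at 34.1, 28.9 and 31.0 CPM in the control libraries and at 38.1, 34.7 and 32.7 CPM in the MTR4 KD libraries. The lowest MTR4 KD library lay below the highest control library. On the log2 scale the difference was 0.17 (SE 0.0898; edgeR adjusted p = 0.372), and 0.11 without control replicate 2 or without MTR4 KD replicate 1. MTR3 of the ring is not to be confused with the helicase MTR4.

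EXOSC10 (ENSG00000171824, chromosome 1, 11066618 to 11099869), the nuclear exonuclease, was at 42.8, 48.9 and 45.7 CPM in the controls and at 42.1, 45.4 and 41.5 CPM after knockdown. The groups overlapped, with control replicate 2 and MTR4 KD replicate 2 the highest of their groups. The knockdown effect was estimated at -0.09 on the log2 scale (SE 0.0733; edgeR adjusted p = 0.561), with an interval of 0.833 to 1.06 times the control level. It was -0.05 without control replicate 2 and -0.14 without control replicate 1.

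**Figure D2:**
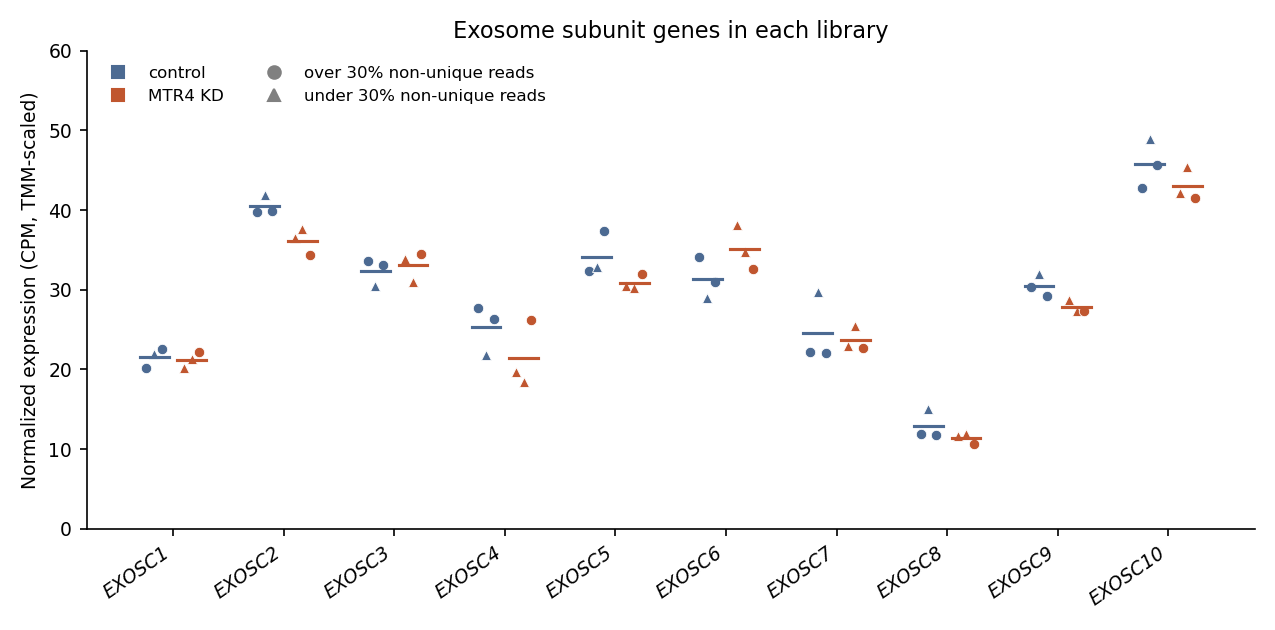
Normalized expression (vertical axis, CPM after TMM scaling) of each subunit gene in the 3 control (blue) and 3 MTR4 KD (orange) libraries, with bars at the group means; circles are libraries with over 30% non-unique reads and triangles those with fewer. The groups are apart for EXOSC2, EXOSC5 and EXOSC9, and EXOSC4 and EXOSC7 split by symbol across both conditions.

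Expression of several members moved with library class. In a fit with both terms, 3 of the 10 differed between classes at an adjusted p under 0.05, as 31.5% of all tested genes did. EXOSC4 was lower by 0.39 on the log2 scale in the libraries with fewer non-unique reads (log2 difference -0.39, adjusted p = 0.000456, edgeR). EXOSC7 and EXOSC8 were higher there, both by 0.26 (adjusted p = 0.0180 and 0.0186). MTREX itself was higher by 0.17 in those libraries (adjusted p = 0.0271).

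With library class as a covariate the standard errors became smaller and 2 members were called lower after MTR4 knockdown, EXOSC2 and EXOSC8, while 0 were called higher. In that fit 10.8% of all tested genes were called lower and 9.43% higher, so that 2 of 10 is about 1 gene more than the share of all genes called lower would give. The log2 fold change was -0.19 for EXOSC2 (SE 0.0502; edgeR adjusted p = 0.0152) and -0.26 for EXOSC8 (SE 0.0748; edgeR adjusted p = 0.0263). The next was EXOSC9, at -0.16 (adjusted p = 0.0654). For EXOSC1 and EXOSC3 the estimates were -0.02 and 0.07. The highest upper bound was then a ratio of 1.26, again for EXOSC6. Each call was lost on leaving out any of 3 libraries. For EXOSC2 the log2 fold change was then -0.22 without control replicate 2 (adjusted p = 0.0628), -0.18 without MTR4 KD replicate 1 (0.0746) and -0.16 without MTR4 KD replicate 3 (0.145), all near the value with 6 libraries. For EXOSC8 it was -0.16 without control replicate 2 (adjusted p = 0.335), -0.24 without MTR4 KD replicate 1 (0.0924) and -0.25 without MTR4 KD replicate 2 (0.0694). Without control replicate 2 or MTR4 KD replicate 3 a class holds 1 condition, so the estimate sets 2 libraries against 1, which is assumed to vary like the others.

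The class with more non-unique reads holds 1 MTR4 KD library and the other class 1 control library, so differences within a class, and any test between classes, rest on arms of 1 library. Within the classes, 6 members were lower after knockdown in both, EXOSC3 and EXOSC6 were higher in both, and EXOSC1 and EXOSC7 changed sign. For EXOSC2 the log2 difference between conditions was -0.21 where non-unique reads were more frequent and -0.18 where they were fewer, and for EXOSC8 it was -0.16 and -0.35. The other members lower in both were EXOSC4, EXOSC5, EXOSC9 and EXOSC10, with differences from -0.04 to -0.20. EXOSC6 and EXOSC7 differed most between classes. In the same order the difference of EXOSC6 was 0.01 and 0.33, and that of EXOSC7 was 0.04 and -0.29. In a fit with an interaction term, these 2 of the 10 had an unadjusted p under 0.05 (0.0157 for EXOSC6 and 0.0169 for EXOSC7, edgeR), as did 11.1% of all tested genes. No member passed after adjustment (adjusted p = 0.295 and 0.302), where 0.974% of all genes did.

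**Figure D3:**
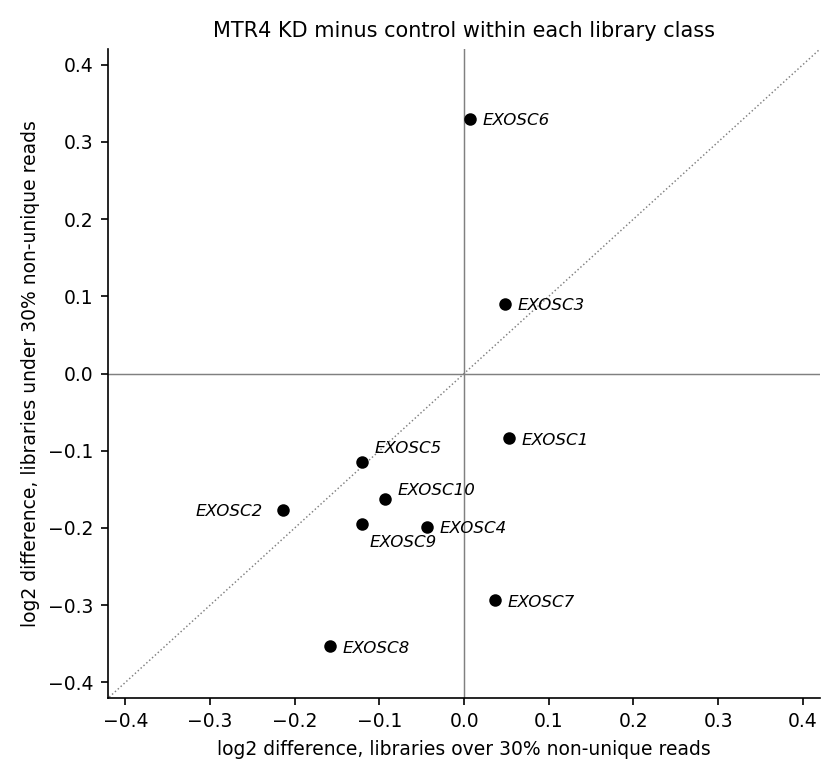
Log2 difference between MTR4 KD and control for each subunit gene among the libraries with more (horizontal axis) and fewer (vertical axis) non-unique reads; the dotted line marks equal differences. EXOSC6, at 0.01 and 0.33, and EXOSC7, at 0.04 and -0.29, lie farthest from the line.

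Levels were compared between subunits per kb of the canonical transcript of each gene (CPM per kb). In the control libraries EXOSC5 was highest, at 34.2 ± 2.82, followed by EXOSC4 at 30.1 ± 3.70 and EXOSC7 at 23.6 ± 4.18 CPM per kb (SD, n = 3 for each). EXOSC2, EXOSC9, EXOSC1, EXOSC3 and EXOSC10 followed closely, between 20.1 and 16.4 CPM per kb. EXOSC8, at 11.1 ± 1.61, and EXOSC6, at 6.07 ± 0.5001 CPM per kb (SD, n = 3 for each), were the lowest. The control libraries of neighbours in this order were apart at 3 places, namely between EXOSC7 and EXOSC2, between EXOSC10 and EXOSC8, and between EXOSC8 and EXOSC6. Other neighbours overlapped. By these lengths the highest level per kb was 5.64 times the lowest.

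The order rests on the length chosen. With the summed length of all annotated exons in place of the canonical transcript, EXOSC4 came first, EXOSC5 second and EXOSC8 last, EXOSC6 stood at rank 5 of 10, and the highest level was 18.5 times the lowest. EXOSC8 has 37 annotated transcripts over 13092 bases of exon, beside 1166 bases in its canonical transcript. For the long single-exon transcript of EXOSC6, 5163 bases, both lengths are equal.

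The makeup of the set was compared by canonical lengths. As a share of the summed level per kb of the 10 genes, the cap genes were at 28.8% ± 0.385 in control and 29.9% ± 0.321 in MTR4 KD libraries (mean ± SD of 3 libraries). The ring genes were at 62.9% ± 0.288 and 61.7% ± 0.799, and EXOSC10 was at 8.29% ± 0.423 and 8.39% ± 0.534 (mean ± SD of 3 libraries). The groups did not overlap for the cap and ring shares, by a narrow gap, and did for EXOSC10. With the summed exon length both shares overlapped, the cap share lying between 21.1% and 22.0% in control and between 21.9% and 23.0% in MTR4 KD libraries. By canonical length, EXOSC5, EXOSC4 and EXOSC7 remained the first 3 in the MTR4 KD libraries, and EXOSC8 and EXOSC6 the last 2. The ratio of MTREX to the median subunit, both per kb, was 0.967, 1.12 and 0.984 in the control libraries and 0.621, 0.689 and 0.615 in the MTR4 KD libraries. With the summed exon length the ratio was 1.88 to 2.15 in control and 1.16 to 1.31 in MTR4 KD libraries, so it was lower after knockdown by either length, while its place above or below the median subunit depended on the length.

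The summed expression of the 10 genes was 295.0, 303.6 and 299.0 CPM in the control libraries and 284.2, 283.4 and 284.0 CPM in the MTR4 KD libraries. Every MTR4 KD library was below every control library, with a difference of -5.13% between the means, whereas relative to ACTB the same sum was 8.10% higher after knockdown. A sum over chosen genes carries no test here.

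Several members share exon bases with a gene on the opposite strand, and the strand setting of the counting is not given in the sources used here, so reads there may be divided or left out. EXOSC9 shares 254 exon bases with CCNA2, the cyclin A2 gene, whose log2 fold change was -0.13 (adjusted p = 0.402). EXOSC8 shares 2138 with SUPT20H, a subunit gene of the SAGA complex (-0.19, adjusted p = 0.244). EXOSC3 shares 452 with TRMT10B (0.23, adjusted p = 0.320) and 53 with DCAF10 (0.14, adjusted p = 0.294). EXOSC10-AS1, the antisense gene at the start of EXOSC10, was near the detection limit, at 0.142 ± 0.0755 CPM in control and 0.212 ± 0.0565 CPM in MTR4 KD libraries (mean ± SD of 3 libraries). None of these neighbours passed edgeR's test with or without the library class. Of the other genes that share exon bases with a member, those in the count tables had at most 423 reads over the 6 libraries. ENSG00000290230, annotated on the strand of EXOSC4 with 786 shared exon bases, has no row in the tables.

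The promoters of 8 members, all but EXOSC1 and EXOSC4, were held in the RefSeq table for GRCh38.p14. It gives 250 bases before and 50 after the transcription start. These 8 promoters held 19 to 43 CG dinucleotides, with a median of 26, beside a median of 24 over the promoters of tested genes. The promoters of EXOSC2 and EXOSC8, the members called lower with the library class as a covariate, are printed 5′ to 3′ on the plus strand, from chr9:130693510-130693809 and chr13:37000536-37000835. Capitals mark matches on either strand to the CCAAT box, to the TATA-like letters TATAAA, and to the stretch AAGATGGCG, which resembles the YY1 site.
EXOSC2: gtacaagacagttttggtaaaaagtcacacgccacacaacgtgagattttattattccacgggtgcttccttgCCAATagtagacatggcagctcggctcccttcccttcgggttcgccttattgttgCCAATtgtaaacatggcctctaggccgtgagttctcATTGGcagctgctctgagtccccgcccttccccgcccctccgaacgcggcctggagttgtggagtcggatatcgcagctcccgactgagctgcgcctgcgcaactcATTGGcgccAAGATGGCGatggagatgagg
EXOSC8: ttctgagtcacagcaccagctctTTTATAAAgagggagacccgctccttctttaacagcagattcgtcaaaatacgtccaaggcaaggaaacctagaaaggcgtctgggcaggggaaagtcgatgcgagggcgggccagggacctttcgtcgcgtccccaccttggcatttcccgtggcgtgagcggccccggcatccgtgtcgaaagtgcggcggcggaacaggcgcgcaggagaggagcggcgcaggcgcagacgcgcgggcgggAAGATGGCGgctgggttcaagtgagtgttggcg

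Both promoters hold AAGATGGCG just after the start, and none of the others among the 8 searched does. Of the promoters of tested genes, 3.09% hold it. The letters were chosen after seeing the data and the 2 genes by their calls, so a link with the change was not tested. With GC added at the end, the letters are in EXOSC8 alone of the 8, and in 1.55% of the promoters of tested genes. CCAAT is in EXOSC2 and in EXOSC5, EXOSC9 and EXOSC10, 4 of the 8, as in 34.7% of the promoters of tested genes. TATAAA is in EXOSC8 alone, far from the start, where 6.78% of those promoters hold it; its matches on the 2 strands overlap. Among the 8, the E-box CACGTG is in EXOSC5 alone (9.07% of promoters) and the NRF1 core GCATGCGC in EXOSC10 alone (4.60%). The ETS letters CCGGAAGT are in none of the 8 (6.78%). A match is a description of the letters and not a bound site.

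The exosome acts with nucleases and adaptors, of which 16 genes were listed. None passed the same edgeR test, which 3.6% of all tested genes passed. At an unadjusted p under 0.05 edgeR gave 2, ZCCHC8 and NRDE2, where 18.8% of all genes reached that level. DESeq2 called 1, ZCCHC8 (adjusted p = 0.0398), and limma-voom 0, against 8.36% and 3.38% of all genes. The median log2 fold change of the 16 was 0.05. With 1 library left out it ranged from 0.035, without MTR4 KD replicate 2, to 0.12, without MTR4 KD replicate 3. With library class as a covariate it was 0.02, with 6 of the 16 lower, against 3 in the fit with condition only. DIS3, the main nuclease of the nuclear exosome, was at 53.6 ± 3.88 CPM in control and 56.6 ± 3.15 CPM in MTR4 KD libraries (mean ± SD of 3 libraries, adjusted p = 0.642 in edgeR). MPHOSPH6, which docks MTR4 onto the barrel, was at 15.2 ± 0.507 and 15.3 ± 1.45 CPM (mean ± SD of 3 libraries, adjusted p = 0.975 in edgeR).

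With library class as a covariate, 3 of the 16 were called higher and 1 lower, beside 9.43% and 10.8% of all tested genes. ZCCHC8, the scaffold of the NEXT complex that brings MTR4 to short-lived nuclear RNA, was at 25.4, 28.3 and 24.9 CPM in the control libraries and at 32.5, 32.6 and 30.3 CPM in the MTR4 KD libraries. The groups did not overlap, as for 12.1% of all tested genes in this direction. The log2 fold change of ZCCHC8 in that fit was 0.24 (SE 0.0543, edgeR adjusted p = 0.00804). For NRDE2, a nuclear protein that binds MTR4, the log2 fold change in that fit was 0.27 (edgeR adjusted p = 0.00593). NRDE2 was also higher by 0.33 in the libraries with fewer non-unique reads (edgeR adjusted p = 0.000744). Its groups overlapped, and with condition only its log2 fold change was 0.37 (edgeR adjusted p = 0.192). PABPN1, the nuclear poly(A)-binding protein, rose by 0.17 in that fit (adjusted p = 0.0469) but differed between library classes by -1.01 on the log2 scale, and without that term its change was -0.14 (adjusted p = 0.875). SKIC8, of the cytoplasmic Ski complex, fell by 0.18 (log2 fold change -0.18, adjusted p = 0.0195). These cofactor calls were not checked by leaving out single libraries. No such call higher was made for any of the 10 subunit genes with all 6 libraries; the difference between the lists was not tested.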

How the data were processed

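RNA-seq libraries of PLC/PRF5 cells, 3 control and 3 MTR4 KD by their labels, were analysed from tables of counts. The authors deposited raw counts of reads per Ensembl gene, without normalization; the submitters' processing notes name HISAT2 2.1.0, HTSeq, DESeq2 and GRCh38. Rows of reads not counted on a gene stayed out of library sizes and tests. Symbols, transcript lengths and shared exon bases came from GENCODE 44 lifted to GRCh37, which named 42395 of 60675 genes. Positions and promoters came from RefSeq on GRCh38.p14. PECAM1, among the markers, had no matching row.

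Genes passing filterByExpr (minimum 10 counts) were scaled by TMM and compared across all genes with edgeR 4.0.16 (quasi-likelihood test, condition only, Benjamini-Hochberg adjustment, R 4.3.3). DESeq2 1.42.0 and limma 3.58.1 gave alternatives. Interval and standard error came from the F statistic of that test. The procedure was tested on simulated counts. Within-class differences used log2 CPM.

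The members, lists, markers, named genes and library classes were chosen with earlier results of these data known. All 10 members, MTREX, ACTB, the listed cofactors past a threshold and up to 4 others were named. The interaction, the neighbours and the promoter letters were chosen after seeing the data. Replicates of a group differed by more than sampling noise. Chi-square per degree of freedom was 4.54 and 7.52 for pairs of the same library class and 74.1 to 83.1 for pairs of different classes.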

Additional observations from a re-analysis of the deposited data

How the results depend on the processing

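Under scaling by DESeq2's size factors, total counts or upper quartiles, both other filters, DESeq2's Wald test, limma-voom and the stricter and looser call rules, 0 of the 10 subunit genes were called, as before. The library class as a covariate moved the count lowered to 2, and the counts of cofactors raised to 3 and lowered to 1; EXOSC2 and EXOSC8 passed there. DESeq2's Wald test moved cofactors raised to 1. With each library left out of the fit with library class, an alternative chosen after seeing the data, between 0 and 2 subunit genes were lowered and between 0 and 1 raised, the latter EXOSC6 without MTR4 KD replicate 3 (adjusted p = 0.0110, edgeR); EXOSC7 was lowered there too (adjusted p = 0.0351). Without that library the estimate sets 2 MTR4 KD libraries against 1 control library, control replicate 2, which is assumed to vary like the others.

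Relative to ACTB the log2 fold changes turned to 0.16 (EXOSC1), 0.024 (EXOSC2), 0.045 (EXOSC5), 0.12 (EXOSC7), 0.00079 (EXOSC8), 0.050 (EXOSC9) and 0.10 (EXOSC10), none called. With 1 library left out of the fit with condition only, no subunit gene was called, and the sign turned for EXOSC1 (range -0.072 to 0.013), EXOSC3 (-0.016 to 0.073) and EXOSC7 (-0.13 to 0.10). MTREX lay between -0.82 and -0.68. The cause of these shifts was not tested.

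Same-numbered libraries, as deviations from their group means, correlated at -0.24, 0.32 and 0.35 across genes. All pairs of the same library class were at 0.32 to 0.36 and all others at -0.49 to -0.23. The sign thus went with library class, and these values cannot show whether same-numbered libraries were paired. With the replicate number as a block, 0 of the 10 were called and MTREX was at -0.76, so no call changed. Each subunit gene had 650 reads or more in every library. The part of counting noise in the spread between libraries was not tested.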
